A study of Homo sapiens with 6 samples.

Results

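IL13RA1, a receptor chain for interleukin-13, was described here in LNCaP prostate cancer cells together with its partners and relatives in JAK-STAT cytokine signalling. The set holds 10 genes: the receptor chains IL13RA1, IL13RA2, IL4R, IL6R and IL6ST, the kinases JAK1, JAK2 and TYK2, and the transcription factors STAT3 and STAT6. IL13RA1 was selected on its measured values, because its difference between the groups was among the 12 largest increases among named genes. The other 9 genes were chosen as its partners and relatives. They are 10 of the 18665 genes named in the data and are read by 15 of its 48802 probes, each of which is given on its own. Of the 10 genes, 7 have a single probe, IL6R has 2, and IL6ST and STAT3 have 3 each.

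LNCaP is an androgen-sensitive human prostate cancer line derived from a metastasis in a lymph node. The cells received 30 nM of pre-miR-331-3p, a precursor of the microRNA miR-331-3p, or 30 nM of pre-miR-NC, a control precursor, and their total RNA was taken 24 h after this transfection. It was hybridised to Illumina Human-6 v3 beadchips, 3 with the label miR-331-3p and 3 with the label miR-NC, called miR-331-3p arrays and miR-NC arrays from here on and lettered A, B and C in each group, the order in which their values are given. The comparison asks which transcripts differ when this microRNA is raised in the line. All 6 arrays come from the same line and from transfected cells, so none shows untransfected cells. Nothing in the labels says that the arrays of a group came from separate cultures, and p-values measure only the spread between these arrays.

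MicroRNAs pair through their seed, the bases near the 5′ end, with sites in messenger RNAs, which are then translated less or degraded. The mature sequence is shown because it is the agent that separates the groups. It is given 5′ to 3′ from RefSeq (GRCh38.p14, chr12:95308480-95308500, plus strand, gene MIR331), with the seed, bases 2 to 8, in capitals.
hsa-miR-331-3p: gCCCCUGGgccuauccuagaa
The sequence has 21 bases, and 1 mature human miRNA in the table used, itself, carries this seed. Matches to it in the 10 genes were not searched here.

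The 10 genes form connected receptor complexes. IL13RA1 joins IL4R in the type II receptor, which binds interleukin-4 and interleukin-13 in non-haematopoietic cells, while IL13RA2 binds interleukin-13 tightly and is mostly regarded as a decoy. IL6R binds interleukin-6 and passes the signal to IL6ST (gp130), a chain shared by the whole interleukin-6 family. JAK1, JAK2 and TYK2 are tyrosine kinases bound to the inner ends of these chains, STAT6 is the main factor that they activate after interleukin-4 and interleukin-13, and STAT3 is the main one after interleukin-6, a cytokine known for its effects on androgen receptor activity and differentiation in LNCaP cells.

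The values are log2 signals after the normalisation made by the authors, and they ran from 6.52 to 13.94. The 16752 probes whose mean signal reached 7 were tested, and dimmer ones are given as values only. Arrays correlated at 0.982 to 0.996 over the tested probes. A difference is the mean of the miR-331-3p arrays minus the mean of the miR-NC arrays, in log2 units. The direction of the differences under these labels is opposite to the direction that the study gives for its list of genes, so the names of the arrays refer to their labels alone, and an exchange of the labels would turn every sign. Of the tested probes, 4.3% were higher and 3.66% lower in the miR-331-3p arrays at an adjusted p under 0.05 (limma, two-sided, Benjamini-Hochberg over all tested probes). These are bulk samples, in which fewer cells of a type and less RNA per cell cannot be told apart.

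The cells were checked against marker genes. Of 10 luminal prostate markers, 8 were tested, and their mean log2 signal per array was 10.61 to 10.68 in the miR-331-3p arrays and 10.48 to 10.50 in the miR-NC arrays. TMPRSS2 (difference 0.53, adjusted p = 0.00228 by limma) and KLK2 (0.33, adjusted p = 0.0149) were higher, and 0 of the 8 were lower at this threshold. Over all tested genes, each read by its brightest probe, 5.16% were higher and 4.02% lower. At an unadjusted p under 0.05, 3 of the 8 were higher and 1 was lower, KLK3 with a difference of -0.23 (limma adjusted p = 0.162). The share of all genes at that unadjusted p was not computed. TMPRSS2 did not pass the methods' t-test (adjusted p = 0.0732). Without the miR-NC A or the miR-NC B array, KLK2 had adjusted p-values of 0.0575 and 0.0674. Of 10 leukocyte markers, CD14 and CD68 were tested and neither passed, with mean signals of 7.45 to 7.56 in the miR-331-3p arrays and 7.49 to 7.59 in the miR-NC arrays. Of 10 basal and mesenchymal markers, CDH2 and COL1A1 were tested and neither passed, at mean signals of 7.07 to 7.18 in the miR-331-3p arrays and 7.08 to 7.22 in the miR-NC arrays. All 3 probes of PTPRC (CD45), which defines leukocytes, stayed below the minimum. The part of these marker differences in the values of the 10 genes was not tested.

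IL13RA1 had the high values on which it was chosen in all 3 miR-331-3p arrays. Its single probe (ILMN_1768505) read 9.45, 9.03 and 9.37 in miR-331-3p arrays A, B and C, against 8.04, 8.06 and 8.02 in miR-NC arrays A, B and C. The groups did not overlap, which is no separate result, since the ranking below held only such genes. The spread was wider among the miR-331-3p arrays, where B was the lowest. The means were 9.28 ± 0.22 in miR-331-3p arrays and 8.04 ± 0.019 in miR-NC arrays (SD, n = 3 each), a difference of 1.24 or 2.37 fold. No test is given, since the gene was chosen on this difference. IL13RA1 stood at rank 10 among the named genes that were higher at an adjusted p under 0.05 with groups that did not overlap. At rank 12, just inside the choice, STX6 differed by 1.22, and at rank 13, just outside it, DNAJC14 differed by 1.19. The study reports DNAJC14 as decreased, by array and by quantitative PCR, which is opposite to its direction under these labels. Under the other settings the IL13RA1 difference lay between 1.16, without the miR-331-3p A array, and 1.37, without the miR-331-3p B array.

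**Figure D1:**
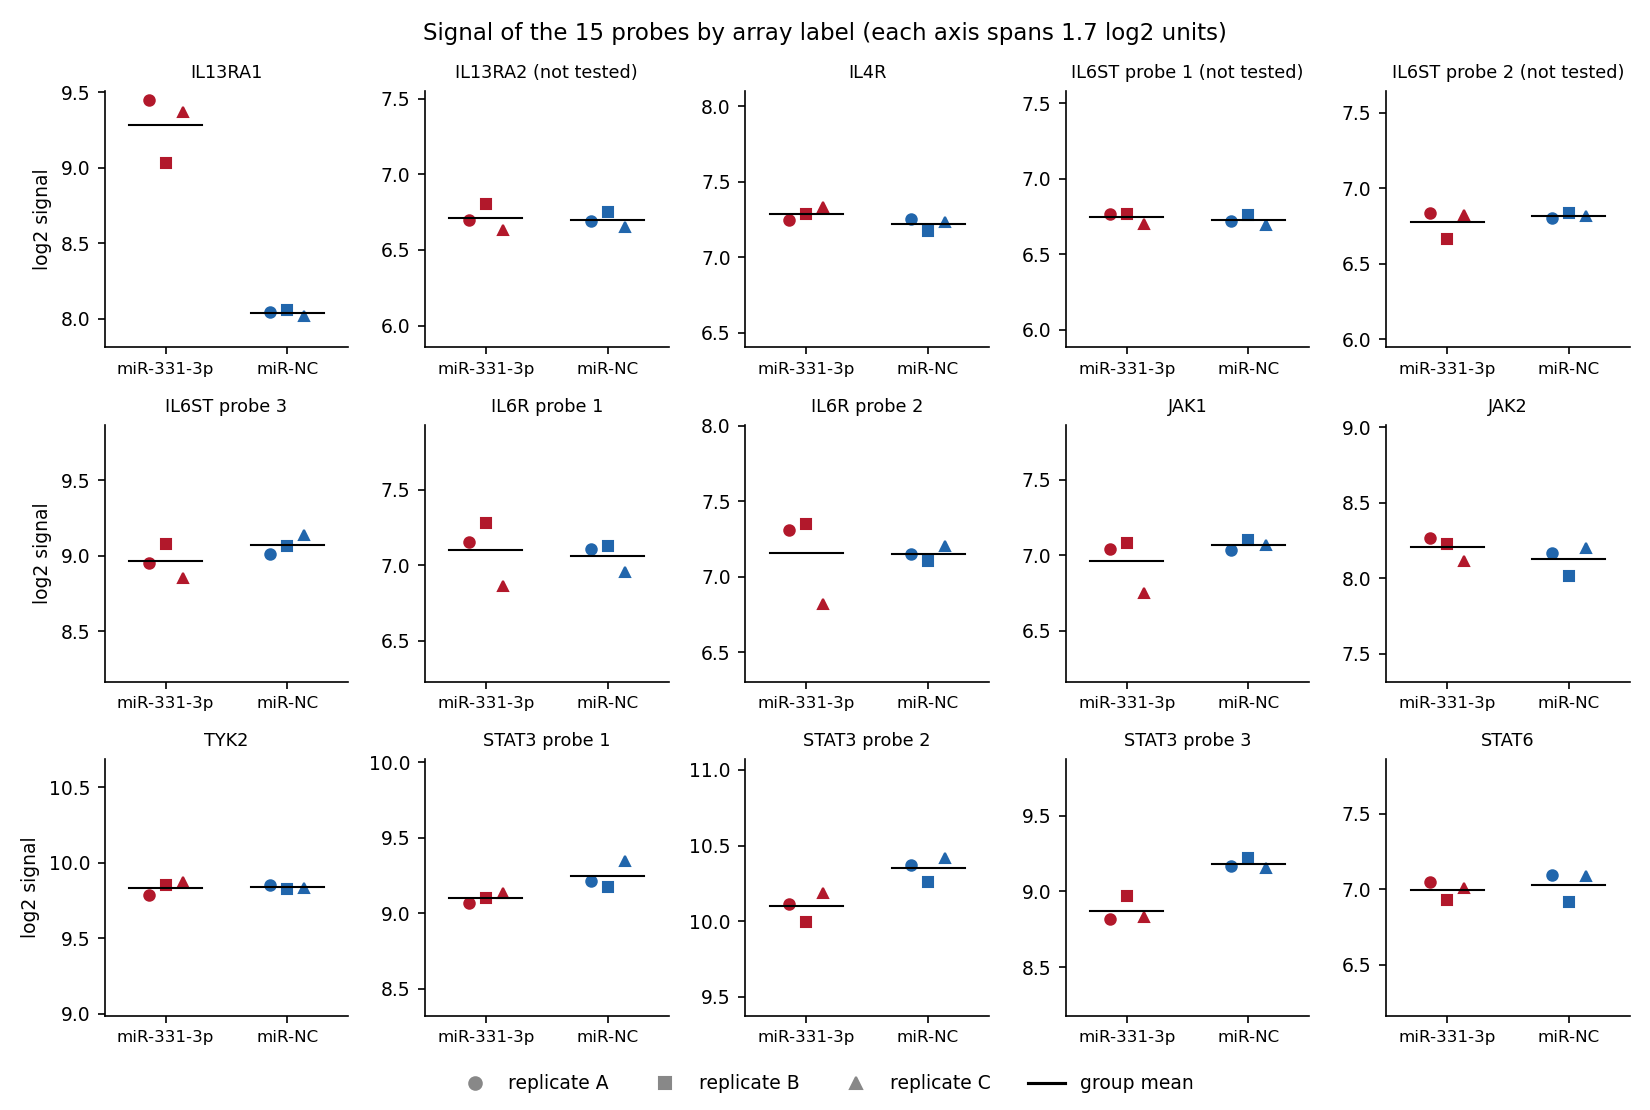
Log2 signal (y axis) of each of the 15 probes of the 10 genes in its own panel, with the 3 miR-331-3p arrays on the left and the 3 miR-NC arrays on the right of each panel and a bar at each mean. Among the 11 tested probes besides IL13RA1, the groups do not overlap for the 3 STAT3 probes, all lower. Of all tested probes, 13.4% did not overlap in the higher and 13.3% in the lower direction. IL13RA1 is left out of this count because it was chosen on its difference, from genes whose groups do not overlap.

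The other chains that bind interleukin-4 and interleukin-13 gave no difference past the threshold. IL4R, the partner of IL13RA1, read 7.24, 7.29 and 7.33 in the miR-331-3p arrays and 7.25, 7.17 and 7.23 in the miR-NC arrays. The groups overlapped, and only the miR-331-3p A array lay within the miR-NC range. The difference was 0.07 (SE 0.071, 95% interval -0.09 to 0.22, limma adjusted p = 0.65). IL13RA2, the decoy, was not tested because its mean was 6.71, close to the lowest values of the data. It read 6.70, 6.81 and 6.63 in the miR-331-3p arrays and 6.69, 6.75 and 6.65 in the miR-NC arrays, which overlapped.

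The interleukin-6 receptor chains did not pass the test either. IL6ST, the shared signalling chain, had 1 bright probe (ILMN_1849013), at 8.95, 9.08 and 8.85 in the miR-331-3p arrays and 9.01, 9.07 and 9.14 in the miR-NC arrays. The difference was -0.11 (SE 0.081, 95% interval -0.29 to 0.07, limma adjusted p = 0.487), and the highest miR-331-3p array lay inside the miR-NC range. The annotation ties ILMN_1849013 to a sequence record that is not from RefSeq, unlike the remaining IL6ST probes. Those had means of 6.73 and 6.80, below the minimum, and differed by 0.02 and -0.04. IL6R, the binding chain, read 7.15, 7.28 and 6.86 in the miR-331-3p arrays and 7.11, 7.12 and 6.95 in the miR-NC arrays at IL6R probe 1 (ILMN_1696394). At IL6R probe 2 (ILMN_1754753) it read 7.31, 7.35 and 6.82 in the miR-331-3p arrays and 7.15, 7.11 and 7.20 in the miR-NC arrays. The miR-331-3p C array was the lowest of the 6 at both. The differences were 0.04 (95% interval -0.20 to 0.27) and 0.0076 (95% interval -0.27 to 0.28), with adjusted p-values of 0.892 and 0.981 by limma. Without the miR-331-3p C array they were 0.15 and 0.18 (adjusted p = 0.338 and 0.199).

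Among the kinases, no probe passed the test. JAK1, which pairs with IL4R and IL6ST, read 7.04, 7.08 and 6.75 in the miR-331-3p arrays and 7.04, 7.10 and 7.07 in the miR-NC arrays, so that miR-331-3p C was again the lowest of the 6 arrays. Its difference was -0.11 (95% interval -0.31 to 0.10, limma adjusted p = 0.558) with all arrays and -0.0045 (adjusted p = 0.986) without miR-331-3p C. JAK2, which is joined to IL6ST and many other receptors, read 8.27, 8.23 and 8.11 in the miR-331-3p arrays and 8.17, 8.01 and 8.20 in the miR-NC arrays. The groups overlapped, and the difference was 0.08 (95% interval -0.10 to 0.25, limma adjusted p = 0.656). TYK2, the kinase bound to IL13RA1, read 9.79, 9.85 and 9.87 in the miR-331-3p arrays and 9.85, 9.83 and 9.84 in the miR-NC arrays. Its difference was -0.0027 (SE 0.07, 95% interval -0.16 to 0.15, limma adjusted p = 0.988), the smallest among the 11 tested probes besides IL13RA1.

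STAT3 was the gene besides IL13RA1 whose arrays separated by label, and it lay in the opposite direction. STAT3 probe 3 (ILMN_2410986) read 8.82, 8.97 and 8.83 in the miR-331-3p arrays and 9.17, 9.22 and 9.16 in the miR-NC arrays. Every miR-331-3p array lay below every miR-NC array. The means were 8.87 ± 0.083 in miR-331-3p arrays and 9.18 ± 0.037 in miR-NC arrays (SD, n = 3 each), and the difference of -0.31 (SE 0.075, 95% interval -0.47 to -0.15, 0.807 fold) passed the test with a limma adjusted p of 0.0283. The call was lost without the miR-331-3p A array (-0.28, adjusted p = 0.0757) and without miR-NC A (-0.32, 0.077), B (-0.29, 0.115) or C (-0.32, 0.0842). It was also lost with an intensity trend in the variance (0.0501) and under the methods' t-test (0.101, adjusted). Over all alternatives run, the difference lay between -0.36 and -0.28.

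The other STAT3 probes separated the labels in the same direction without passing the threshold. STAT3 probe 2 (ILMN_2401978) read 10.11, 9.99 and 10.19 in the miR-331-3p arrays and 10.37, 10.26 and 10.42 in the miR-NC arrays. Its difference was -0.25 (SE 0.081, 95% interval -0.43 to -0.08, limma adjusted p = 0.0841), and it passed with array weights (-0.29, 0.0283) and without the miR-331-3p C array (-0.30, 0.0419). STAT3 probe 1 (ILMN_1663618) read 9.07, 9.10 and 9.13 in the miR-331-3p arrays and 9.22, 9.18 and 9.35 in the miR-NC arrays. Here the gap between the labels was narrow, and the difference was -0.15 (95% interval -0.31 to 0.02, limma adjusted p = 0.29). The 3 probes read transcripts of the same gene from the same RNA and are not independent of each other. STAT6, the factor activated through IL13RA1 and IL4R, read 7.05, 6.93 and 7.01 in the miR-331-3p arrays and 7.09, 6.91 and 7.08 in the miR-NC arrays. The groups overlapped, with a difference of -0.04 (95% interval -0.21 to 0.14, limma adjusted p = 0.845).

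**Figure D2:**
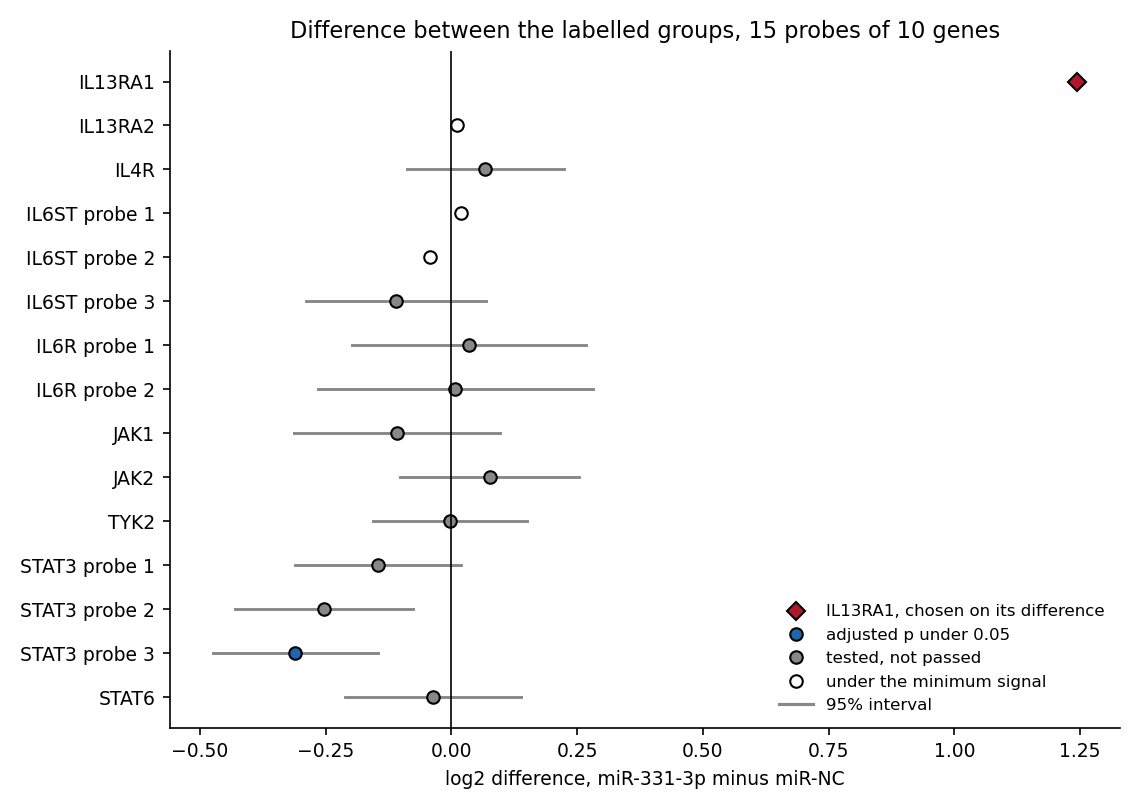
Difference in log2 signal, miR-331-3p minus miR-NC (x axis), of each probe of the 10 genes (rows), with the 95% limma interval for the 11 tested probes besides IL13RA1. IL13RA1, at 1.24, is drawn without an interval because it was chosen on this value, and STAT3 probe 3, at -0.31, is the probe that passed the test.

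Across the 14 probes of the other 9 genes, 11 were bright enough to be tested. Of these, 0 were higher and 1 was lower in the miR-331-3p arrays by limma, against the 4.3% and 3.66% of all tested probes. At an unadjusted p under 0.05 the counts were 0 higher and 2 lower, by limma and by the methods' t-test alike. Over all 16752 tested probes, the methods' t-test gave 1545 higher and 1459 lower at that p. The limma counts over all probes at an unadjusted p were not computed. The arrays did not overlap by label for 3 of the 11, all of STAT3 and all lower, and for 0 in the higher direction, where 13.3% of all tested probes did not overlap in the lower and 13.4% in the higher direction. The median difference of the 11 probes was -0.04, and that of all tested probes was -0.0028. Besides STAT3, the 8 tested probes of 7 genes differed by -0.11 to 0.08 with adjusted p-values of 0.487 to 0.988, and their intervals lay within -0.31 and 0.28. Among them, the probes of IL4R, IL6R, JAK1 and STAT6 had mean signals of only 7.01 to 7.25, under the upper quartile of all values (7.33). Changes are compressed at such signals, so the small differences of these genes do not show that they were unchanged.

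**Figure D3:**
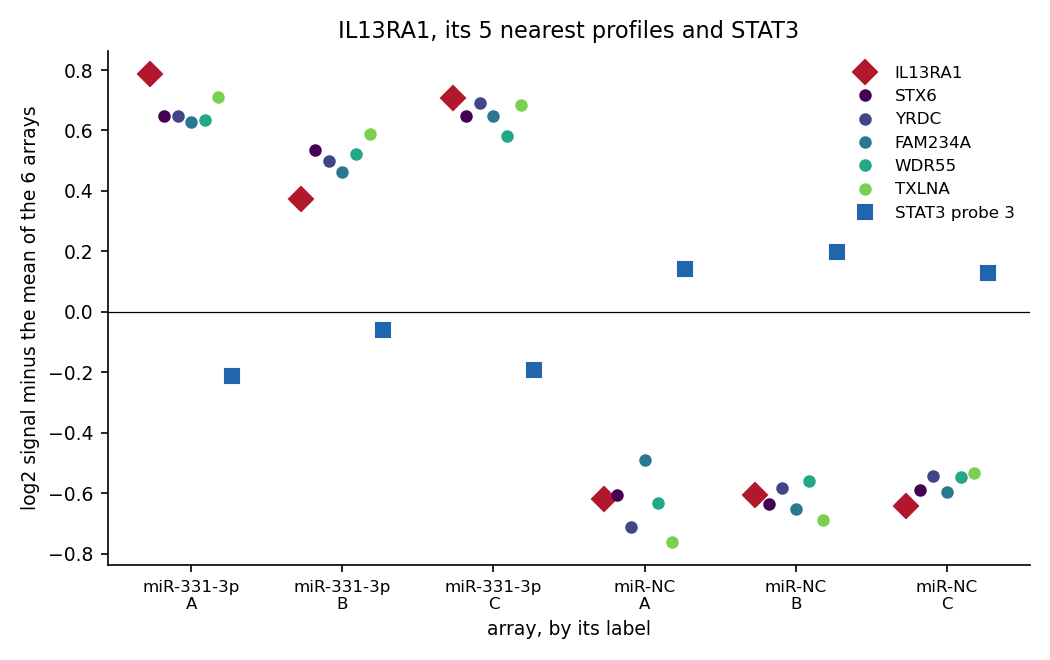
Log2 signal minus the gene's own mean over the 6 arrays (y axis) in each array (x axis) for IL13RA1, for the 5 genes with the nearest profiles and for STAT3 probe 3. The 5 genes follow IL13RA1 in standing above 0 in the miR-331-3p arrays and below 0 in the miR-NC arrays, and STAT3 stands the other way.

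The profiles most like that of IL13RA1 belonged to genes on none of the pathway lists, which follows from the measure of likeness. It depends mainly on the size of the difference on which IL13RA1 was chosen. No tested gene of the lists differed by more than 0.64 at its brightest probe, and a dimmer probe of STAP2 differed by 0.80. Likeness was the Euclidean distance between log2 profiles over the 6 arrays, each centred on its own mean, among 13519 named probes. The nearest 5 were STX6, a syntaxin of the trans-Golgi network (distance 0.23), YRDC, an enzyme of transfer RNA modification (0.234), FAM234A (0.239), WDR55, a nucleolar WD-repeat protein (0.27), and TXLNA, a taxilin that binds syntaxins (0.303). STX6, for example, read 9.81, 9.70 and 9.82 in the miR-331-3p arrays and 8.56, 8.53 and 8.58 in the miR-NC arrays. Their differences were 1.16 to 1.32, and their correlations with IL13RA1 over the 6 arrays were 0.983 to 0.991, which follow from the choice of these genes for their likeness to IL13RA1. STX6, YRDC and TXLNA were themselves among the 12 largest increases. The 11 other tested probes of the set lay at distances from 1.48 (IL4R and JAK2) to 1.95 (STAT3 probe 3), which likewise reflect their smaller or opposite differences.

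The surroundings of the receptors were read from 7 gene lists of the pathway, in which the brightest probe stood for its gene. Of 112 listed genes, 52 were tested. Of these, 5 were higher and 3 lower in the miR-331-3p arrays, where 5.16% of all 10503 tested genes were higher and 4.02% lower by limma. At an unadjusted p under 0.05 the counts were 7 and 5, and the share of all genes at that p was not computed. The median difference of the 52 genes was 0.03, and that of all tested genes was 0.0044. The ligands of IL13RA1 and IL6R were not seen: the probes of IL4, IL13 and IL6 had means between 6.69 and 6.84, below the minimum. Among the 7 tested genes of the ligand list, 0 passed in either direction, with a median difference of 0.0039. Of 31 further receptor chains, 11 were tested and 0 passed, with differences from -0.22 (GHR, the growth hormone receptor, adjusted p = 0.233) to 0.18 (LIFR, which joins IL6ST in the receptor for leukaemia inhibitory factor, adjusted p = 0.186). STAT5A (0.10) and STAT5B (0.17), both tested from the list of other kinases and factors, did not pass, and JAK3 had a mean of 6.77, below the minimum.

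Inhibitors of the pathway included genes in both directions. Of 17 listed, 12 were tested, with 2 higher, 1 lower and a median difference of 0.07, where 5.16% of all tested genes were higher and 4.02% lower. SOCS2, a suppressor of cytokine signalling that acts mainly on growth hormone receptors, read 9.47, 9.31 and 9.35 in the miR-331-3p arrays and 8.96, 9.09 and 9.01 in the miR-NC arrays. It was higher by 0.36 (SE 0.077, 95% interval 0.19 to 0.53, limma adjusted p = 0.0162), with groups that did not overlap, and its second probe differed by 0.22 (adjusted p = 0.0824). The SOCS2 call was lost without miR-331-3p A (adjusted p = 0.051), miR-NC A (0.0692) or miR-NC C (0.0706). SOCS1, SOCS3 and CISH, the inhibitors best known as feedback targets of STAT factors, were below the minimum, with probe means of 6.80 to 6.91.

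PTPN2, a phosphatase that acts on JAK1 and STAT factors, read 8.74, 8.60 and 8.33 in the miR-331-3p arrays and 8.11, 8.15 and 8.24 in the miR-NC arrays. It was higher by 0.39 (SE 0.1, 95% interval 0.17 to 0.61, limma adjusted p = 0.0385). Its second tested probe differed by 0.07 (adjusted p = 0.741), so the probes of this gene disagree. Without the miR-331-3p A or B array or any of the 3 miR-NC arrays, its adjusted p was 0.0847 to 0.134, and the mean of its tested probes differed by 0.23. The PTPN2 call was also lost with no filter on dim probes. PIAS2, a SUMO ligase of the family named for inhibiting STAT factors, read 9.13, 8.99 and 9.01 in the miR-331-3p arrays and 9.40, 9.57 and 9.21 in the miR-NC arrays. It was lower, with a difference of -0.35 (SE 0.096, 95% interval -0.56 to -0.14, limma adjusted p = 0.0466). Leaving out any array other than miR-NC C gave it adjusted p-values of 0.0514 to 0.183, and the call was also lost with no filter, cyclic loess and an intensity trend. A further probe of PIAS2 also passed (-0.37, adjusted p = 0.0289), and another did not (-0.11, adjusted p = 0.432).

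Among the adaptors, STAP2 was higher in the miR-331-3p arrays. It is a signal-transducing adaptor that binds STAT3 and other STAT factors. Its brightest probe read 9.16, 9.32 and 9.33 in the miR-331-3p arrays and 8.61, 8.60 and 8.69 in the miR-NC arrays, with no overlap. It was higher by 0.64 (SE 0.077, 95% interval 0.47 to 0.81, limma adjusted p = 0.000539), and its other tested probes were higher by 0.45 (adjusted p = 0.0234) and 0.80 (adjusted p = 0.000535). Its adjusted p stayed between 0.000145 and 0.048 over all alternatives run, and it was the single gene of the 8 called on these lists that passed the methods' t-test after adjustment. STAP2 is in the list of genes that the study drew from these same arrays as down regulated by miR-331-3p. Its direction under these labels is the opposite one, and it is not independent evidence. Of 12 listed adaptors, 8 were tested and 1 was higher, with 0 lower and a median difference of 0.04. The shares over all tested genes were 5.16% higher and 4.02% lower.

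Genes known as STAT3 targets divided by direction. Of 14 listed, 9 were tested, with 2 higher, 2 lower and a median difference of -0.07. Over all tested genes, 5.16% were higher and 4.02% lower. At an unadjusted p under 0.05, 3 were higher and 3 lower, with no share of all genes computed at that p. HIF1A, with a difference of -0.41 and groups that did not overlap, did not pass (limma adjusted p = 0.0515). CEBPB, a transcription factor of the acute-phase and differentiation response, read 10.78, 10.75 and 10.86 in the miR-331-3p arrays and 11.27, 11.25 and 11.45 in the miR-NC arrays. It was lower, with a difference of -0.53 (SE 0.08, 95% interval -0.70 to -0.35, limma adjusted p = 0.00245). CCND1, cyclin D1, read 12.12, 11.91 and 12.16 in the miR-331-3p arrays and 12.52, 12.39 and 12.42 in the miR-NC arrays, and was lower with a difference of -0.38 (SE 0.085, 95% interval -0.57 to -0.20, limma adjusted p = 0.0196). The arrays of CEBPB and of CCND1 did not overlap by label. Without miR-331-3p B, or without any of the miR-NC arrays, CCND1 had adjusted p-values of 0.0565 to 0.0825.

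BCL2L1, which encodes the survival protein BCL-XL, read 11.66, 11.79 and 11.94 in the miR-331-3p arrays and 11.48, 11.32 and 11.19 in the miR-NC arrays. It was higher by 0.47 (SE 0.098, 95% interval 0.25 to 0.68, limma adjusted p = 0.0149), while its second probe differed by 0.0245 (adjusted p = 0.963) and the mean of both by 0.245 without passing. Without miR-331-3p B, miR-NC B or miR-NC C its adjusted p was 0.0547, 0.0652 and 0.078. CEBPD, a relative of CEBPB induced by interleukin-6, read 9.91, 9.80 and 10.00 in the miR-331-3p arrays and 9.57, 9.43 and 9.55 in the miR-NC arrays. It was higher by 0.38 (SE 0.08, 95% interval 0.20 to 0.56, limma adjusted p = 0.0152), and without miR-NC B or miR-NC C its adjusted p was 0.0784 and 0.0539. CEBPD and CEBPB, both of the C/EBP family, thus stood in opposite directions. Of 12 listed STAT6 targets, 3 were tested and 0 passed, with differences of -0.26 to -0.14. At an unadjusted p under 0.05, 1 of the 3 was lower, CDH26 (-0.26, limma adjusted p = 0.0688), and 0 were higher. The share of all genes at that unadjusted p was not computed.

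**Figure D4:**
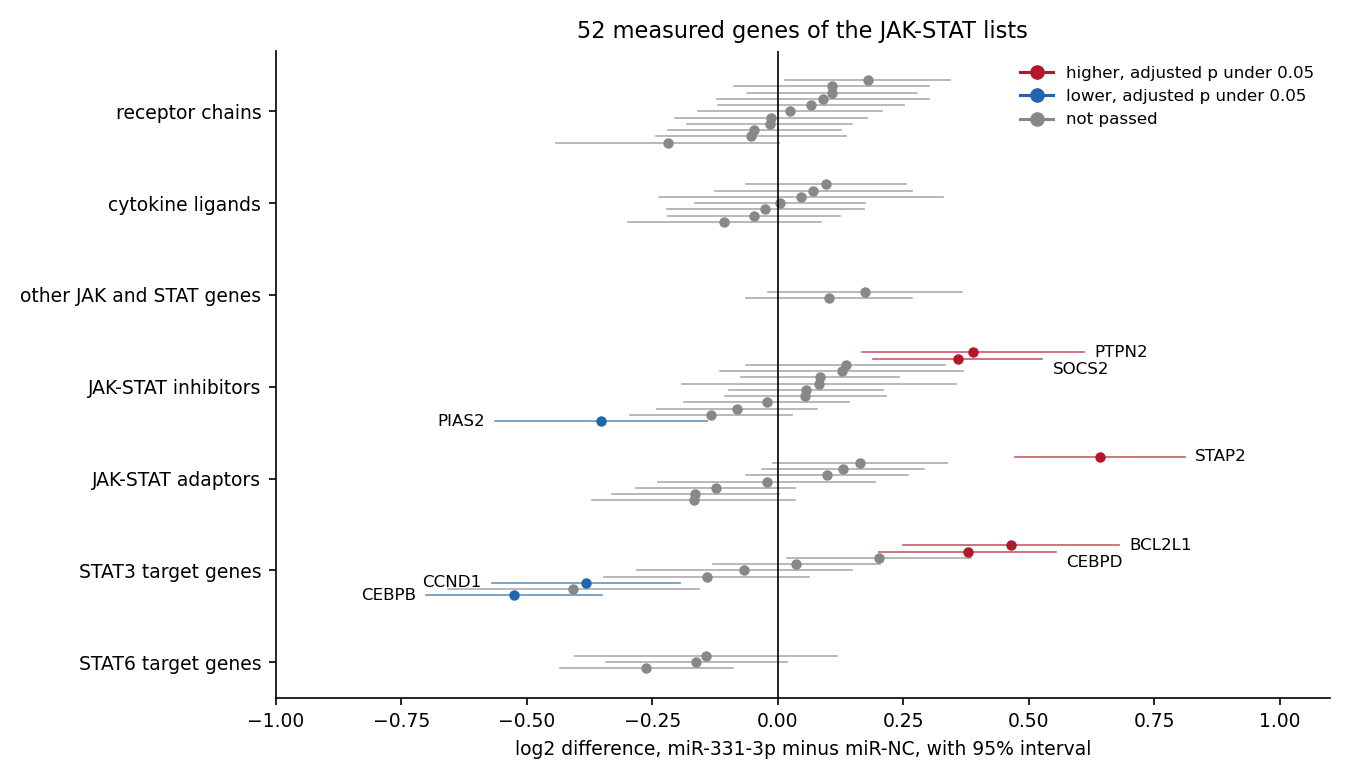
Difference in log2 signal, miR-331-3p minus miR-NC (x axis), with its 95% limma interval, for the 52 tested genes of the 7 pathway lists (rows, grouped by list). The 5 genes that were higher and the 3 that were lower at an adjusted p under 0.05 are coloured and named, and STAP2 lies farthest to the right at 0.64.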

How the data were processed

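LNCaP RNA was profiled on 6 Illumina Human-6 v3 arrays, grouped by their labels. The authors deposited log2 signals, which per the study's methods were background corrected and variance stabilised (lumi) and then quantile normalised in Partek Genomics Suite. Variance stabilisation compresses low signals, so folds of dim probes are understated. A table of unnormalised signals with detection p-values has 12 columns of per-sample values whose names match no sample, and it was not used. The number of arrays limits the precision.

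The platform annotation gave a single gene symbol to 27577 probes, and 27540 of these symbols were checked against current names by gene identifier. The 13 probes with several symbols and 21212 others were left unnamed. Names and the miRNA sequence came from RefSeq tables of GRCh38.p14. The 16752 probes with a mean of at least 7 were tested with limma 3.58.1 (lmFit and eBayes, no block) in R 4.3.3, with Benjamini-Hochberg adjustment over all of them and a threshold of 0.05. With 3 arrays a group, the smallest p of an exact two-sided permutation test is 0.1. The fit was tested on simulated data.

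The 10 genes and the lists were chosen with earlier results of these data known. All 10 genes are named with every probe, then up to 4 genes per list past the threshold by size of difference, and the 5 profiles nearest to IL13RA1. Other genes named were chosen after their values were seen. Alternatives were no filter, a minimum of 7.5, array weights, cyclic loess, an intensity trend, a replicate block, the methods' t-test, omission of each array, and the mean of a gene's probes. Python 3.11.15, pandas 2.3.3, numpy 2.4.6 and matplotlib 3.10.9 were used.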

Additional observations from a re-analysis of the deposited data

How the results depend on the processing

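The 720 probes higher and 613 lower became 115 and 49 under the methods' t-test once adjusted (1545 and 1459 unadjusted). The count of other member probes that were lower, 1 in STAT3, became 0 with the methods' t-test and with an intensity trend, and 2 with array weights. The count of other member probes that were higher was 0 under every alternative run. The 5 higher and 3 lower pathway genes became 1 and 0 with the methods' t-test, 5 and 5 with array weights, and 3 and 3 with the mean of all tested probes of a gene. Fits without each array in turn (leave-one-out) gave 363 to 765 probes higher and 263 to 697 lower, 0 to 2 member probes lower, and 1 to 5 pathway genes higher and 1 to 2 lower. Neither the labels nor the methods say that the letters pair the arrays. Same-letter correlations of deviations were -0.043, 0.0174 and 0.224, and C alone correlated best with its own letter. With 3 arrays a group, these values cannot exclude a weak pairing. With a replicate block, 742 probes were higher and 670 lower, 1 member probe was lower, and 5 pathway genes were higher and 4 lower. Of 278 recomputed values of tested probes and genes, 224 kept their direction and side of the threshold, 44 lost the threshold, 2 gained it and 8 changed sign. A further 16 values, of IL13RA1 and of the probes below the minimum, moved by less than the spread between arrays or not at all. Many of these could not move, since a filter, the methods' t-test, a replicate block or an intensity trend leaves a difference of means unchanged. The sign changes were in TYK2 (0.0067 with cyclic loess, -0.0212 to 0.0228 without each array) and IL6R (-0.055 to 0.154 and -0.0883 to 0.179 without each array for its 2 probes), none of which passed the test. The cause of these changes was not tested. IL13RA2 and 2 IL6ST probes lay below the minimum signal, where changes are compressed and were not tested.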
